A study of Homo sapiens with 61 samples.

Results

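XPC peaks of ASH1L-/- cells collected 3 h after UV were compared with those of unirradiated ASH1L-/- cells. XPC had been mapped by chromatin immunoprecipitation and sequencing (ChIP-seq) in U2OS, a human osteosarcoma cell line. The comparison took all 3 libraries of ASH1L-/- cells at 3 h and all 3 of ASH1L-/- cells without UV, chosen by their labels. They are 6 of the 19 XPC peak lists, in a series of 61 samples. Irradiated cells had received 20 J/m2 of UV-C light. Both groups carried the same ASH1L deletion, made by CRISPR in cells grown from individual colonies. The comparison is thus of irradiated with unirradiated ASH1L-deficient cells, and it does not show what ASH1L did. Wild-type (WT) cells at 3 h (3 libraries) and without UV (4 libraries) are given beside them where a difference between genotypes was tested. Every list had been called against a matching pair of pooled immunoprecipitates from XPC-/- cells, which lack the target of the antibody. XPC-/- libraries were made in duplicate for each time, so the controls of the 3 h and the no UV lists probably differed, and a difference between controls and a difference between groups cannot be told apart.

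XPC is the damage sensor of global-genome nucleotide excision repair, the pathway that removes bulky lesions from DNA whether or not it is transcribed. UV-C light joins neighbouring pyrimidines into cyclobutane pyrimidine dimers and (6-4) photoproducts. DDB2, in a ubiquitin ligase with DDB1, finds dimers within nucleosomes and passes them to XPC, after which TFIIH opens the helix and nucleases excise the damaged strand. ASH1L is a histone methyltransferase that works with the chromodomain protein MORF4L1 (also called MRG15).

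Between 3 h and no UV, the share of the genome under XPC peaks did not differ beyond the spread between libraries (10.6 ± 5.15% at 3 h and 11.3 ± 1.57% without UV, SD, n = 3 each), nor did the shares of promoters, gene bodies and intergenic DNA. Of 14510 gene bodies, that of MORF4L1 alone passed the test. Its mean covered share was 0.37% at 3 h, against 24.4% without UV, and its promoter did not pass. This call was lost without any of 5 of the 6 libraries and in a fit of the 6 libraries alone. No chromosome, 1 Mb bin or promoter passed. The 12 bins that were higher at 3 h at an unadjusted p under 0.05 all lay near the end of the long arm of chromosome 8. With libraries scaled to an equal total, chromosome 14 passed as lower at 3 h, a call that was lost without any of 3 single libraries.

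Peak lists differed widely within each group. The 3 h lists held 326438, 500000 and 500000 peaks (replicates 1, 2 and 3), against 500000 in each list without UV. Exactly 500000 peaks stood in 17 of the 19 XPC lists, so the number of peaks carries little information. Covered DNA is used instead, although its total also depends on that cap and on peak width. The lists ended at different strengths, with a lowest −log10 p of 1, 1.47 and 1.15 at 3 h, against 1.37, 1.26 and 1.33 without UV. Similar totals therefore cannot show that XPC binding was the same. Peaks covered 165, 464 and 293 Mb at 3 h, against 380, 318 and 291 Mb without UV. Median peak width was 400, 576 and 416 bp at 3 h, against 520, 491 and 443 bp without UV. The 3 h replicate 1 list was thus the shortest, with the narrowest peaks. Peaks were weak in every list, with a median −log10 p of 1.39, 1.63 and 1.34 at 3 h, against 1.58, 1.46 and 1.53 without UV. Median fold enrichment over the control was 1.76, 1.91 and 1.87 at 3 h, against 1.81, 1.69 and 1.69 without UV (two-sided exact permutation test, p = 0.2, where 3 libraries against 3 cannot go below 0.1). Peaks with a −log10 p of at least 2 numbered 12348, 40738 and 11573 at 3 h, against 52260, 27463 and 36251 without UV (exact permutation p = 0.3). The lists themselves carry no read depth. By the read totals stated with the methods, which entered no value here, 3 h replicate 2 and no UV replicate 1 had the fewest reads of the 6 libraries and covered the most DNA, while 3 h replicate 1 had the most reads and covered the least. The part of depth in the results was not tested. U2OS cells are of mesenchymal origin, and H3K4me3 of unirradiated ASH1L-/- cells lay on the promoters of 8 of 10 mesenchymal and osteoblast markers (0 kb at TWIST1 and COL1A2), against 1 of 6 blood cell, 3 of 6 epithelial and 2 of 5 liver and gut markers. Over all protein-coding genes, 13855 promoters carried the mark and 6115 did not. Most promoters thus carried it, and the mesenchymal count does not by itself identify the cell type.

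Sites that recurred in 1 group and were missing from the other were then listed. When the 6 lists were merged, 1204197 regions resulted, and 41167 of them (3.42%) had a peak in all 6 lists. A peak in all 3 lists at 3 h and in none without UV was found in 7925 regions (0.658% of all), against 13735 regions (1.14%) with the opposite pattern. Promoters held 1.85% of the 3 h sites, against 1.97% of the no UV sites. Gene bodies held 64.3% of the 3 h sites and 63.4% of the no UV sites. Of the genome, promoters are 2.53% and gene bodies 58.9%. These counts rest on a yes-or-no call in lists of unequal length, and the 3 h group includes the shortest of the 6. When only peaks with a −log10 p of at least 2 were taken, 9 regions were left for 3 h, against 131 for no UV.

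Among the 3 h sites, the highest mean enrichment was 2.39-fold, on chromosome 10 (hg38, 110404426 to 110405422), in intergenic DNA 92.5 kb from DUSP5. The next lay in TRPM7, which codes for an ion channel with a kinase domain, and overlapped no exon (2.14-, 2.37- and 2.40-fold in the 3 libraries). The others were 484 kb from CTNNA3 (2.28-fold), 2.25 kb from ANKRD36B (2.26-fold) and in CEP112 (2.26-fold). Among the no UV sites the highest mean was 2.33-fold, 99 kb from GYPC on chromosome 2. It was followed by sites in CAV2 (2.26-fold), in POM121C (2.25-fold), 18.9 kb from TAS2R16 (2.21-fold) and in SLC14A1, a urea transporter gene (2.75-, 1.90- and 1.94-fold). Of these 10 sites, only the SLC14A1 site overlapped an exon and none a promoter. A short site of each group is printed below from the hg38 plus strand, to show what DNA a recurrent weak peak covered, with the bases under a peak in all 3 lists of the group in capitals.
Site near ANKRD36B, 3 h, chr2:97490200-97490409: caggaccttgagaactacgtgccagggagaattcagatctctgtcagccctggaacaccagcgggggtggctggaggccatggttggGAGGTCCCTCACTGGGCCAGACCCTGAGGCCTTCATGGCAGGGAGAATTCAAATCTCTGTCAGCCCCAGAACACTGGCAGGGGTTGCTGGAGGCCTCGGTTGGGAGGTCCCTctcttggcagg
SLC14A1 site, no UV, chr18:45728998-45729237: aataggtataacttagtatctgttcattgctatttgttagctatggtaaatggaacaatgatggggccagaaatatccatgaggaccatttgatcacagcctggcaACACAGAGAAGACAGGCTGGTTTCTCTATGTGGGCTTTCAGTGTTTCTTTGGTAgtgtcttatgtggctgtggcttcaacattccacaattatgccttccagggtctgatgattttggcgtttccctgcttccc
The stretch common to all 3 lists was 112 bases in the 3 h site and 54 bases in the SLC14A1 site. Neighbouring bases that are both pyrimidines on either strand, where UV dimers can form, made up 64.1% of steps in the 3 h site, against 51.9% in the SLC14A1 site. These are single sites and no difference was tested on them.

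By chromosome, these sites were spread unevenly. Chromosome 2 held the most in both groups, with 1166 of the 3 h sites (14.7%) and 1634 of the no UV sites (11.9%). Chromosome 8 carried 712 of the 3 h sites (8.98%), against 829 of the no UV sites (6.04%). Chromosome 14 carried 77 of the 3 h sites (0.972%), against 385 of the no UV sites (2.8%). Chromosomes 17 and 22 alone held more 3 h sites than no UV sites, with 437 against 354 and 228 against 129. The share of all merged regions on each chromosome was not computed. These counts rest on the same peaks as the coverage of chromosomes below and add no separate evidence to it.

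Over all peaks, base composition overlapped between groups. G and C made up 46.7, 47.7 and 45.8% of covered bases at 3 h, against 47.2, 44.3 and 43.9% without UV (exact permutation p = 0.3), with 40.9% in the genome. Dipyrimidine steps made up 57, 56.7 and 56.6% at 3 h, against 56.8, 56.3 and 56.3% without UV (exact permutation p = 0.3), with 55.9% in the genome. All 6 lists were therefore richer in G and C than the genome, and the groups overlapped. Pairs of lists shared little of their covered DNA. The shared part, as a fraction of all bases that either list covered, was 0.127 to 0.173 between 3 h lists, 0.149 to 0.159 between lists without UV and 0.0994 to 0.192 between the groups.

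How much of each class of DNA XPC covered was examined next. Promoters reached 2 kb to either side of protein-coding start sites, gene bodies were all other bases inside genes, and intergenic DNA was what remained. Promoters were covered for 14.2, 42 and 18.3% at 3 h, against 42, 18.8 and 16.9% without UV (24.8 ± 15 against 25.9 ± 14%, mean ± SD, n = 3 each, exact permutation p = 0.8). In each group 1 library had 42% and the others under 20%, so the groups overlapped throughout. Gene bodies were covered for 5.97, 16.7 and 10.7% at 3 h, against 13.4, 11.6 and 10.5% without UV (exact permutation p = 0.8). Intergenic DNA was covered for 4.68, 13.1 and 8.62% at 3 h, against 10.7, 9.39 and 8.82% without UV (exact permutation p = 0.7). In every class the lowest and, but for a tie at promoters, the highest library both belonged to the 3 h group. Over the whole genome, 10.6 ± 5.15% was covered at 3 h and 11.3 ± 1.57% without UV (n = 3 each, exact permutation p = 0.8). Without 3 h replicate 1, the mean log2 differences turned positive, to 0.23 at promoters, 0.18 in gene bodies and 0.15 in intergenic DNA. With peaks of −log10 p of at least 2 alone, they were −1.50, −1.44 and −1.50 (exact permutation p = 0.4, 0.3 and 0.3).

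**Figure D1:**
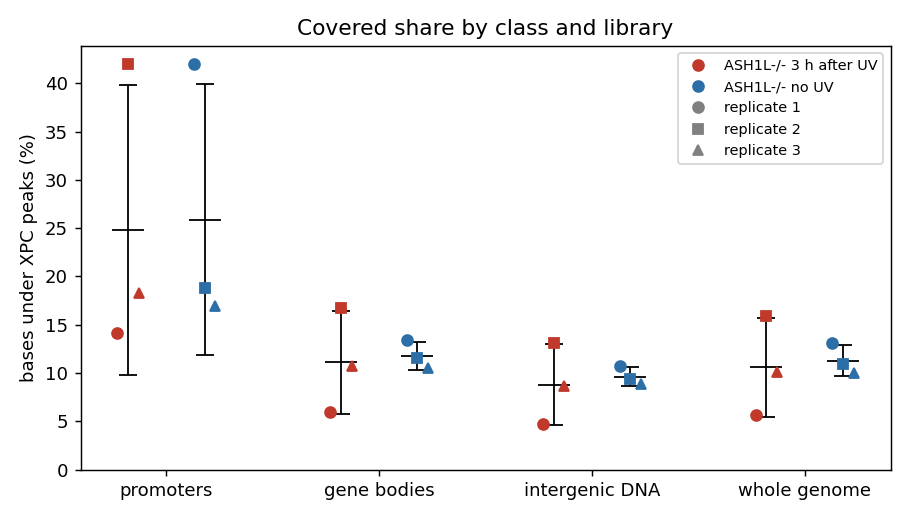
Percent of promoter, gene body and intergenic bases covered by XPC peaks in each library of ASH1L-/- cells at 3 h and without UV, with points for libraries and lines for the mean ± SD (n = 3 each). In every class the 3 h libraries spread across the no UV libraries, and 1 library of each group reaches 42% at promoters.

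The make-up of the covered DNA also overlapped between groups. Promoters made up 5.86 ± 1.11% of covered bases at 3 h and 5.59 ± 2.21% without UV, gene bodies 61.9 ± 0.366% at 3 h and 61.5 ± 1.09% without UV, and intergenic DNA 32.2 ± 0.751% at 3 h and 32.9 ± 1.26% without UV (n = 3 each, exact permutation p = 0.8, 0.7 and 0.6). Since promoters are 2.53% of the genome, they were covered above the genome-wide level by 2.49, 2.64 and 1.82 times at 3 h, against 3.22, 1.72 and 1.69 times without UV. The change at 3 h was also compared with that in WT cells. On the log2 scale it was −0.0982 in ASH1L-/- cells and −0.0459 in WT cells at promoters, −0.21 and −0.25 in gene bodies, and −0.25 and −0.28 in intergenic DNA. Exchanging genotypes within each time gave p = 0.946, 0.936 and 0.963 for the 3 differences (exact permutation, two-sided).

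Around start sites, XPC coverage peaked in all 6 libraries. The highest share of start sites covered was 18.9, 61.2 and 25.1% at 3 h, against 65.2, 27.8 and 26.2% without UV. At 5 kb from the start site it was 8.24, 25.4 and 13.4% at 3 h, against 19.6, 13.4 and 11% without UV. The start site thus stood 2.3, 2.41 and 1.88 times above its surroundings at 3 h, against 3.32, 2.08 and 2.38 times without UV. Replicate 2 of the 3 h group and replicate 1 of the no UV group stood apart from the other 4 libraries in height.

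**Figure D2:**
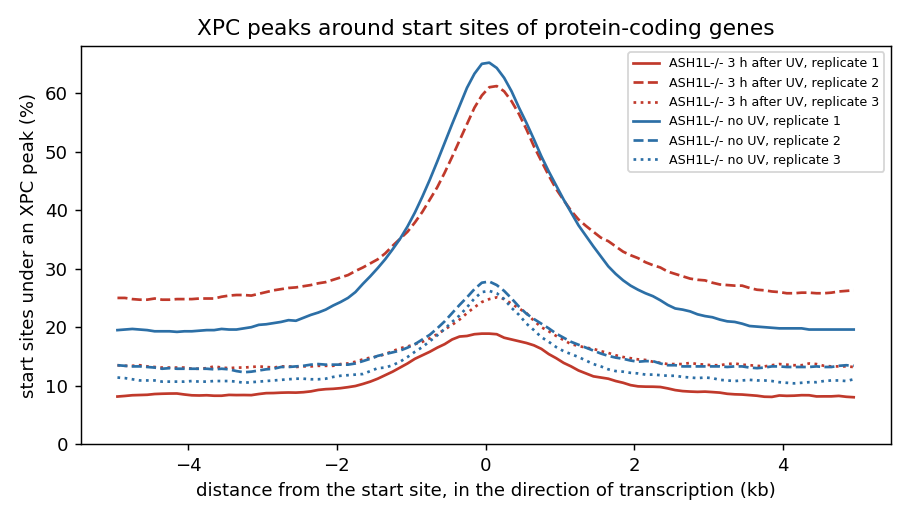
Percent of protein-coding start sites covered by an XPC peak (y axis) by distance from the start site in kb (x axis), with 1 line for each library of ASH1L-/- cells at 3 h and without UV. All 6 lines are highest near the start site, and 1 line of each group, at 61.2% for 3 h and 65.2% for no UV, stands above the rest.

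H3K4me3, a mark of active promoters, was used to divide them. In the 13855 promoters that carried the mark in unirradiated ASH1L-/- cells, XPC covered 17.5, 48.4 and 20.2% of bases at 3 h, against 54, 21.6 and 20.1% without UV (exact permutation p = 0.6). In the 6115 promoters without it, XPC covered 7.15, 29.4 and 14.3% at 3 h, against 17.9, 13.3 and 10.5% without UV (exact permutation p = 0.9). Marked promoters were covered more than unmarked ones in each of the 6 libraries. Of all bases with H3K4me3 in ASH1L-/- cells at 3 h, XPC covered 23.8 ± 11.3% at 3 h and 28 ± 13.5% without UV (n = 3 each, exact permutation p = 0.5).

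Chromosomes were covered very unevenly, and the extremes were shared by both groups. Chromosomes X and 13 were the least covered in all 6 libraries. Chromosome 15 was the most covered in 5 of them and was second to chromosome 22 in 3 h replicate 2. None of the 23 chromosomes passed the test between 3 h and no UV (0%, limma with Benjamini-Hochberg adjustment, threshold 0.05, fitted on log2 of percent covered plus 0.5), and none had an unadjusted p under 0.05. Chromosome 14 had the smallest p. It was covered for 2.44, 9.5 and 6.13% at 3 h, against 9.66, 7.44 and 8.36% without UV (log2 difference −0.62 ± 0.35, SE, limma adjusted p = 0.764). The groups overlapped because 3 h replicate 2 was high, and without that library the call was made (−1.02, limma adjusted p = 0.0217). Chromosome 9 (−0.50 ± 0.36) and chromosome 4 (−0.45 ± 0.35) followed.

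**Figure D3:**
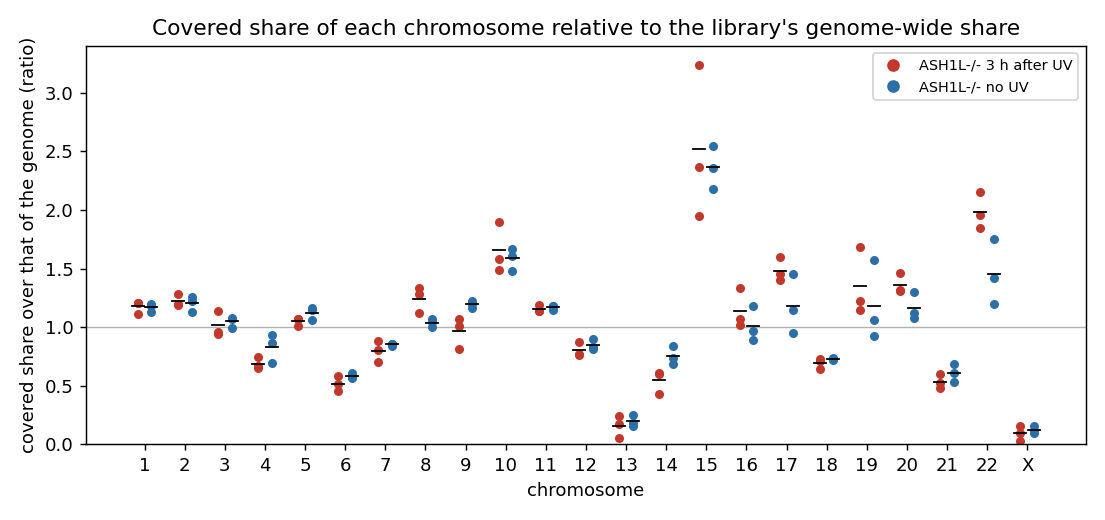
Coverage of each chromosome divided by that of the whole genome in the same library, for ASH1L-/- cells at 3 h and without UV, with points for libraries. Chromosome 14 lies at 0.43 to 0.609 at 3 h, below 0.681 to 0.836 without UV, and chromosome 8 lies at 1.12 to 1.33 at 3 h, above 1 to 1.07 without UV.

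When each library was scaled to an equal total, chromosome 14 passed as lower at 3 h (−0.44 ± 0.11, SE, limma adjusted p = 0.0216). Relative to the genome it stood at 0.43, 0.596 and 0.609 at 3 h, against 0.74, 0.681 and 0.836 without UV, and the groups did not overlap. The call was lost without no UV replicate 1, no UV replicate 3 or 3 h replicate 1 (limma adjusted p = 0.0629, 0.17 and 0.162). Chromosomes 8, 9, 20 and 22 did not overlap between groups on this scale either. They did not pass at an equal total (limma adjusted p = 0.266 for 8 and 9, and 0.381 for 20 and 22). Separation of 3 libraries from 3 cannot by itself give an exact permutation p below 0.1. Chromosome 8 stood at 1.33, 1.12 and 1.28 at 3 h, against 1, 1.07 and 1.04 without UV. Chromosome 22 stood at 1.96, 2.15 and 1.85 at 3 h, against 1.75, 1.42 and 1.2 without UV. Chromosome 20 was also higher at 3 h, and chromosome 9 was lower (0.811, 1.01 and 1.07 at 3 h, against 1.22, 1.2 and 1.16 without UV). In WT cells the unscaled difference of chromosome 14 was −0.68 (limma adjusted p = 0.73), and the genotypes did not pass as different (0.0526, limma adjusted p = 0.992).

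In 1 Mb bins, 0 of 2875 passed (0%, limma, lowest adjusted p = 0.767), with 12 higher and 26 lower at 3 h at an unadjusted p under 0.05. The median bin differed by −0.37 on the log2 scale, so values below are best read against that shift. All 12 higher bins lay on chromosome 8 between 130000001 and 145000000 (hg38). These 15 Mb were covered for 22.3, 45.8 and 37.9% at 3 h, against 21.5, 17.2 and 12.2% without UV. Over the whole segment, all 3 h libraries were above all no UV libraries, by a narrow margin for 3 h replicate 1. Of its 15 single bins, 6 had every 3 h library above every no UV library. The share of all bins that were apart was not counted. Relative to the genome these 15 Mb stood at 3.93, 2.87 and 3.77 at 3 h, against 1.64, 1.57 and 1.22 without UV. In ASH1L-/- cells at 1 h the segment was covered for 19.1, 24.4 and 14%. WT cells had 32.8, 46.2 and 37.6% at 3 h, against 27.5, 24.6, 34.5 and 15.2% without UV. Relative to the genome, WT cells stood at 3.28, 3.34 and 4.81 at 3 h, against 2.21, 1.95, 2.53 and 1.44 without UV. On that scale the segment was higher at 3 h without overlap in WT cells too. The segment was chosen for its values in this comparison, so they are a description.

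**Figure D4:**
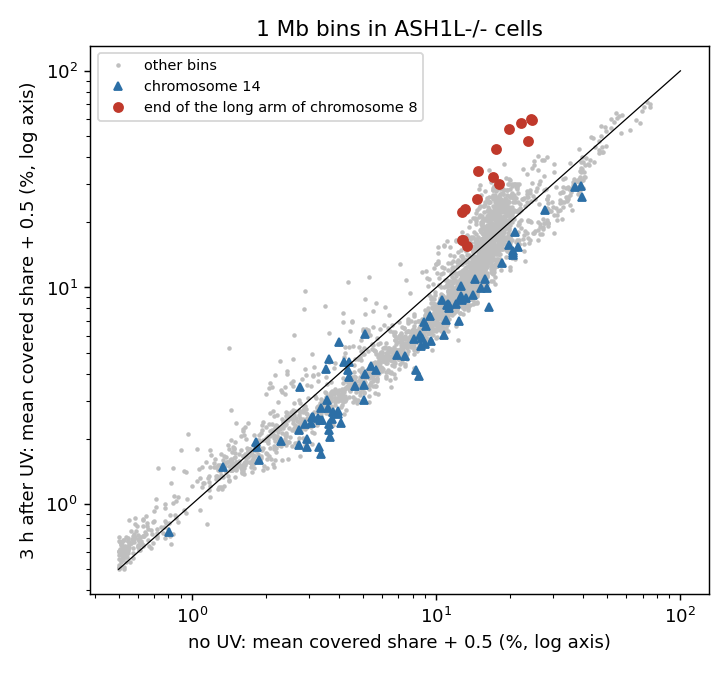
Coverage of 1 Mb bins by XPC peaks in ASH1L-/- cells, as percent of bases, at 3 h and without UV. Bins between 130000001 and 145000000 on chromosome 8 lie on the side of higher coverage at 3 h, where 12 of them had an unadjusted p under 0.05, while none of the 2875 bins passed the adjusted threshold.

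Of single bins, the one starting at 139000001 on chromosome 8 was covered for 25.4, 54.9 and 48.8% at 3 h, against 20.3, 17.4 and 13.6% without UV (log2 difference 1.25 ± 0.38, SE, limma adjusted p = 0.767). The bin before it, at 138000001, had 21.8, 41.5 and 38.6% at 3 h, against 15.7, 14.1 and 13.2% without UV. It was the single bin that passed at an equal total (1.38 ± 0.24, SE, limma adjusted p = 0.0483). With peaks of −log10 p of at least 2 alone, both turned negative (−0.51 and −0.60). Bins starting at 140000001, 142000001 and 144000001 were also among the 5 with the smallest p, and in the bin at 142000001 the groups overlapped. Among lower bins, those starting at 47000001, 48000001, 56000001 and 57000001 on chromosome 14 and at 79000001 on chromosome 15 had the smallest p. The bin at 48000001 had 4.44, 10 and 8.52% at 3 h, against 10.7, 16.8 and 20.5% without UV (−1.04, limma adjusted p = 0.767). The bin at 79000001 on chromosome 15 had 6.5, 19.4 and 12.1% at 3 h, against 24.6, 23.1 and 20% without UV, and began past the end of MORF4L1. The 12 Mb of chromosome 14 from 46000001 to 58000000 were covered for 4.01, 11 and 6.05% at 3 h, against 11.3, 10.5 and 12.1% without UV, and the groups overlapped. Relative to the genome these 12 Mb stood at 0.706, 0.691 and 0.602 at 3 h, against 0.869, 0.961 and 1.2 without UV, and did not overlap. This segment, too, was chosen for its values. WT cells had more there, with 14.6, 16.8 and 15.9% at 3 h, against 28, 34.5, 28.8 and 28.1% without UV. Relative to the genome, WT cells stood at 1.46, 1.21 and 2.03 at 3 h, against 2.25, 2.73, 2.11 and 2.66 without UV. The WT groups did not overlap on either scale, so the segment was lower at 3 h in both genotypes relative to the genome. On chromosome 9, which held 7 of the 26 lower bins, the 40 Mb from 73000001 to 113000000 had 7.42, 20.5 and 17.6% at 3 h, against 22.8, 21.1 and 20.4% without UV, again with overlap. The difference between genotypes in the change at 3 h passed in 0 of 2875 bins (0%, limma), and in none at an unadjusted p under 0.05.

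For tests of single genes over 10 kb, the first 2 kb after the start site were left out of the body. Of 14510, 1 passed (0.00689%, limma adjusted p under 0.05), and it was lower at 3 h. At an unadjusted p under 0.05, 339 were higher and 502 lower, and the median difference was −0.18 on the log2 scale. The gene that passed was MORF4L1, which codes for the cofactor of ASH1L named above. Its body on chromosome 15 (hg38, 78874890 to 78898139, 23.2 kb) was covered for 0, 1.11 and 0% at 3 h, against 29.6, 29.9 and 13.7% without UV. The groups did not overlap, and 2 of the 3 h libraries had no peak there. The log2 difference of percent covered plus 1 was −4.23 ± 0.64 (SE, 95% interval −5.57 to −2.89, limma adjusted p = 0.0499). The body held 0, 2 and 0 peaks at 3 h, against 10, 9 and 7 without UV, and their enrichment was 1.57- to 2.27-fold. With each of the 6 libraries left out in turn, the call was kept only without no UV replicate 3 (limma adjusted p = 0.0471, against 0.0713 without 3 h replicate 2, 0.0748 without 3 h replicate 1, 0.117 without 3 h replicate 3, 0.132 without no UV replicate 1 and 0.352 without no UV replicate 2). It was also lost in the 6 ASH1L-/- libraries alone (limma adjusted p = 0.951) and with peaks of −log10 p of at least 2, where the difference was −1.82 (limma adjusted p = 0.533).

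Coverage of the MORF4L1 body was also measured in the other groups. In ASH1L-/- cells at 1 h it was 5.9, 8.4 and 13.9%. In WT cells it was 3.46, 2.82 and 2.51% at 3 h, against 22.4, 10.7, 3.77 and 15.7% without UV (log2 difference −1.63, limma adjusted p = 0.648). The WT libraries thus went the same way without overlap. The change in ASH1L-/- cells differed from that in WT cells by −2.60 ± 0.87 on the log2 scale (SE), which did not pass over all gene bodies (limma adjusted p = 1). Of the 11 neighbouring gene bodies tested, none passed. CHRNA5, a nicotinic receptor subunit gene, was covered for 3.69, 15.8 and 5.15% at 3 h, against 33.8, 26.6 and 31.5% without UV. IREB2, which codes for an iron regulatory protein, was covered for 2.43, 10.9 and 8.23% at 3 h, against 21.4, 17.9 and 22% without UV. CTSH, the cathepsin H gene next to MORF4L1, was covered for 10.9, 38.3 and 16.4% at 3 h, against 21.8, 26.6 and 16.9% without UV. CHRNA5 and IREB2 did not overlap between groups, and neither did CHRNA3 (10.9, 14.3 and 13.2% at 3 h, against 28, 21.6 and 16.8% without UV). CTSH and the other neighbours overlapped. In WT cells the difference was negative in every neighbour and none passed, with −1.26 at CHRNA5, −1.72 at IREB2 and −1.42 at CHRNA3 (limma adjusted p = 0.803, 0.439 and 0.422). The share of all gene bodies that were apart was not counted.

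The MORF4L1 promoter, by contrast with its body, was covered in every library. It had 0.802, 1.6 and 1.03 kb under peaks at 3 h, against 2.97, 0.536 and 0.291 kb without UV (difference −0.12 ± 0.69 kb, SE, limma adjusted p = 1). In it, 443 bases (78872257 to 78872699) lay under a peak in all 3 lists at 3 h and ended 191 bases before the start site at 78872890. The plus strand around the start site is printed to show the end of that stretch, in capitals, and the DNA that follows it. G and C made up 74% of the 300 bases printed.
MORF4L1 start site, chr15:78872600-78872899: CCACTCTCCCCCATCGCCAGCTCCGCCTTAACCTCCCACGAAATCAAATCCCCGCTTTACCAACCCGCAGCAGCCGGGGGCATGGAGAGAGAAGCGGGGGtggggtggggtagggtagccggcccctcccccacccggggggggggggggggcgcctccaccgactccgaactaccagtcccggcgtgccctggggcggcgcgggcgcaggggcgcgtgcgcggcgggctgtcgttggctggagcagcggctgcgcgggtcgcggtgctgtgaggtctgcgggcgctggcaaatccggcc

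**Figure D5:**
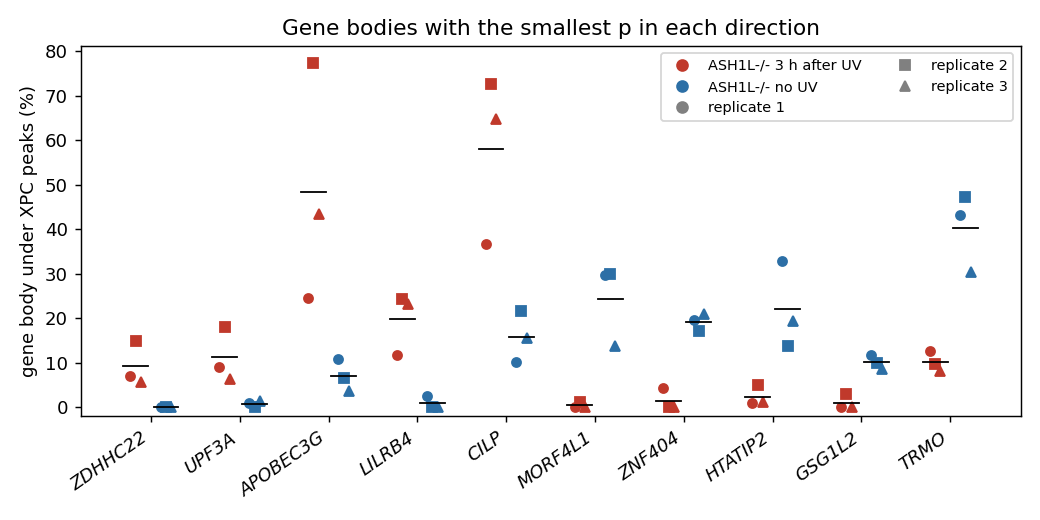
Percent of bases covered by XPC peaks in named gene bodies, for ASH1L-/- cells at 3 h and without UV, with points for libraries. MORF4L1 lies at 0 to 1.11% at 3 h and at 13.7 to 29.9% without UV, and it is the gene body that passed the test.

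Other gene bodies with small p did not pass after adjustment. ZDHHC22, a palmitoyltransferase family gene on chromosome 14, was covered for 6.9, 14.9 and 5.61% at 3 h and was at 0 in all 3 libraries without UV (limma adjusted p = 0.0716). In unirradiated WT cells it was covered for 17.6, 23.9, 37.1 and 25.6%. UPF3A, of nonsense-mediated decay, had 9.05, 18.1 and 6.38% at 3 h, against 0.923, 0 and 1.41% without UV (2.75 ± 0.48, SE, limma adjusted p = 0.0949). APOBEC3G, a cytidine deaminase that restricts retroviruses, had 24.6, 77.3 and 43.3% at 3 h, against 10.9, 6.47 and 3.52% without UV (2.60 ± 0.57, SE, limma adjusted p = 0.517). These 3 did not overlap between groups, and all 3 passed at an equal total per library (limma adjusted p = 0.0403, 0.0183 and 0.0189). LILRB4, a leukocyte receptor gene, had 11.8, 24.3 and 23.2% at 3 h, against 2.6, 0 and 0% without UV. CILP, a cartilage matrix gene, had 36.7, 72.5 and 64.8% at 3 h, against 10.1, 21.7 and 15.5% without UV (1.82 ± 0.41, SE, limma adjusted p = 0.517).

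Of the lower gene bodies after MORF4L1, ZNF404, a zinc finger gene, had 4.28, 0 and 0% at 3 h, against 19.5, 17 and 20.9% without UV (−3.53 ± 0.70, SE, limma adjusted p = 0.274). HTATIP2 had 0.924, 4.92 and 1.18% at 3 h, against 32.8, 13.7 and 19.4% without UV (−2.89 ± 0.58, SE, limma adjusted p = 0.274). GSG1L2 had 0, 2.93 and 0% at 3 h, against 11.7, 9.98 and 8.52% without UV. TRMO, a tRNA methyltransferase gene, had 12.7, 9.65 and 8.08% at 3 h, against 43.2, 47.3 and 30.3% without UV (−1.89 ± 0.44, SE, limma adjusted p = 0.517). All 4 were apart between groups without passing the test. These and the higher gene bodies above had been chosen for their small p, so that separation is a description. How many of all gene bodies were apart was not counted.

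Genes of the repair pathway were then read by role. Of the damage recognition genes, 7 of 9 were tested as gene bodies and none passed in either direction, with a median difference of −0.0457 beside −0.18 over all gene bodies. The XPC gene was covered for 19.4, 39.2 and 32.7% at 3 h, against 20.3, 18.6 and 18.7% without UV (0.58 ± 0.44, SE, limma adjusted p = 0.846). DDB2 had 9.63, 19.7 and 6.76% at 3 h, against 35, 9.54 and 8.97% without UV. DDB1 had 14.5, 40.2 and 12.9% at 3 h, against 17.6, 10.2 and 2.87% without UV. In all 3 the groups overlapped. None of 6 tested transcription-coupled repair genes passed (median −0.68), nor did any of 15 genes of TFIIH, XPA, RPA and the excision nucleases (median −0.42) or of 15 gap filling genes (median −0.17). ERCC2, the XPD helicase of TFIIH, had 24.9, 56.6 and 16% at 3 h, against 5.81, 4.41 and 30.3% without UV (1.49 ± 0.77, SE, limma adjusted p = 0.846). Its promoter had 1.46, 0.48 and 1.9 kb at 3 h, against 0.398, 0.428 and 0 kb without UV, which did not overlap or pass (limma adjusted p = 1).

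Of the ASH1L complex and the histone chaperone FACT, 4 of 6 gene bodies were tested and 1, MORF4L1, passed, while none had a difference above 0 (median −0.41). Of all 14510 gene bodies, 1 passed and 5865 had a difference above 0 (median −0.18), and the counts and medians below are to be read against these. ASH1L had 8.95, 16.4 and 11.9% at 3 h, against 19.9, 16.6 and 13% without UV, and the groups overlapped. Its deleted exons lie within a gene body that XPC peaks cannot check for the knockout. SUPT16H, a FACT subunit, had 0, 5.45 and 4.25% at 3 h, against 7.86, 3.24 and 1.16% without UV. SSRP1, the other subunit, was tested as a promoter alone, with 0.282, 2.76 and 0.171 kb at 3 h, against 0.822, 1.64 and 0.147 kb without UV. No gene body passed among 15 H3K4 methyltransferase and demethylase genes (median −0.13), 8 immediate early genes (0.41), 19 p53 targets (−0.31), 22 common fragile site genes (−0.45), 21 replication and cell cycle genes (0.31), 61 olfactory receptor genes (−0.73) or 322 genes over 500 kb (−0.43, with 50 above 0). Nor did one pass among mesenchymal (9 tested, median −0.26), blood (4, 0.025), epithelial (3, 0.66) or liver and gut markers (3, 0.00), ribosomal protein (22, −0.26), replication-dependent histone (6, −0.37), HOX (5, −0.13), clustered protocadherin (37, 0.29) or zinc finger genes (396, −0.14). No promoter passed in any list, including 94 keratin-associated protein genes (median 0.00 kb).

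Of 18991 promoters, 0 passed (0%, limma, lowest adjusted p = 0.614), with 367 higher and 499 lower at an unadjusted p under 0.05. Values are kb covered of the 4 kb around the start site. KCNJ14, a potassium channel gene, had 2.2, 1.86 and 2.03 kb at 3 h, against 0.355, 0 and 0.137 kb without UV (1.87 ± 0.48 kb, SE, limma adjusted p = 0.812). IZUMO1, which codes for a sperm protein needed for fusion with the egg, had 0.808, 3.33 and 1.57 kb at 3 h, against 0.194, 0 and 0 kb without UV. Both lie on chromosome 19, as does ACP4 (0.487, 2.96 and 2.08 kb at 3 h, against 0, 0.037 and 0 kb without UV). AIFM3 and FGF17 were at 0 in all 3 libraries without UV and had 0.261 to 3.84 and 0.765 to 3.82 kb at 3 h. The smallest p belonged to HMHB1, with 0, 0 and 0.08 kb at 3 h, against 2.82, 1.66 and 0.697 kb without UV (−1.70 ± 0.38 kb, SE, limma adjusted p = 0.614). FGL2, a fibrinogen-like gene, had 0, 0 and 0.359 kb at 3 h, against 3.25, 1.55 and 1.95 kb without UV. RXYLT1, an enzyme gene of dystroglycan glycosylation, had 0, 0 and 0.198 kb at 3 h, against 2.3, 2.25 and 2.8 kb without UV. OR51F1, an olfactory receptor gene, and ZNF311 were at 0 in all 3 libraries at 3 h, against 1.08 to 1.44 and 0.855 to 1.57 kb without UV. All 10 were apart between groups, in the direction of their difference. They had been chosen for their small p, so that separation is a description. How many of all promoters were apart was not counted. Promoters of the XPC, DDB2, DDB1, ASH1L and SUPT16H genes overlapped between groups, with differences of −0.34 to 0.20 kb.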

How the data were processed

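XPC was immunoprecipitated from U2OS cells and sequenced as 100 bp single-end reads. The authors trimmed reads with Trim Galore 0.6.5, mapped them to hg38 lacking chromosome Y (BWA 0.7.17-r1188), kept those of mapping quality 30 or more, and removed duplicates (Picard) and blacklisted regions (bedtools 2.29.2, SAMtools 1.7). The authors called broad peaks with MACS2 2.2.7.1 in each library by itself, at a stated p of 0.01. Most deposited peaks were weaker than that: the median −log10 p of the 6 lists was 1.34 to 1.63 and the lowest 1 to 1.47. The study used such peaks to check replicability and the continuous signal for its comparisons, and that signal was not used here. Columns 2 and 3 of the deposited lists are positions, column 7 gives enrichment as deposited (fold, or ratio, of signal to the XPC-/- control), and columns 8 and 9 are the authors' −log10 p and −log10 q. The deposited H3K4me3 peak positions were used where 2 of 3 lists of a group agreed. No reads or counts were used, and the read totals that the methods state entered no computation.

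Covered bases were computed per class, chromosome, 1 Mb bin, gene body and promoter with GENCODE 44 (Python 3.11.15). Features covered in fewer than 3 lists were left out. Percent covered was fitted as log2 with a pseudocount of 0.5 (bins, chromosomes) or 1 (gene bodies), and promoters in kb, by limma 3.58.1 (R 4.3.3) over all 19 libraries in 6 group means, with a trend, robust variances and Benjamini-Hochberg adjustment at 0.05. The chromosome pseudocount was set after the files were seen. Class shares and peak properties used two-sided exact permutation tests, which cannot go below 0.1 here. With all 6 libraries, the p-values of these tests were 0.2 or more before any adjustment over comparisons. The limma fit was run on simulated data with independent normal noise for each feature and large added changes. Shifts shared by a whole library were not simulated, so that run cannot show how the fit handles them. Libraries are biological replicates per the labels. Permutation p-values measure the spread between the libraries compared. The limma p-values rest on a spread estimated over all 19 libraries and moderated across features, not on the 6 libraries alone.

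The comparison and 22 gene lists were chosen with earlier results of these data known. Named were the 10 largest passing differences in each direction for gene bodies and 5 for promoters and bins (where fewer than 5 passed, the 5 smallest p), passing chromosomes or the 3 smallest p, up to 2 passing members of each list and direction, 8 repair and chromatin genes in any case, and the 5 recurrent sites of highest mean enrichment in each direction. The sequence of 1 recurrent site is not reported here. Neighbours of MORF4L1 and wider segments were chosen after values were seen. Alternatives were peaks with a −log10 p of at least 2, the 250000 strongest peaks, an equal total covered length, a replicate block, leaving out libraries, the 6 libraries alone, other pseudocounts, bins of 5 Mb, genes longer than 4 kb and a 1 kb promoter window.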

Additional observations from a re-analysis of the deposited data

How the results depend on the processing

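Leaving out each library in turn gave log2 differences of −0.56 to 0.31 at promoters, −0.56 to 0.18 in gene bodies, −0.59 to 0.15 in intergenic DNA and −0.57 to 0.17 over the genome. Without 3 h replicate 1 all 4 turned positive (0.23, 0.18, 0.15 and 0.17), and promoters also did so without 3 h replicate 3 (0.0402) and without no UV replicate 1 (0.31). Without 3 h replicate 2 all 4 were at their lowest (−0.56, −0.56, −0.59 and −0.57, exact permutation p = 0.5, 0.2, 0.1 and 0.2). In that setting 629 of the 1 Mb bins were lower and 4 higher at an unadjusted limma p under 0.05, and 0 passed. With peaks of −log10 p of at least 2 the differences were −1.50, −1.44, −1.50 and −1.48 (exact permutation p = 0.3 to 0.4). Recurrent sites fell to 1541 for 3 h and 3488 for no UV when peaks had to cover at least 0.5 of the region in every list, and to 9 and 131 with peaks of −log10 p of at least 2.

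Chromosomes passing the test numbered 0 to 1 when libraries were left out, 1 at an equal total, and 1 at an equal total with the replicate block (chromosome 14, limma adjusted p = 0.00504). At an equal total with 1 library left out it was again 0 to 1 (1 without no UV replicate 2, 3 h replicate 2 or 3 h replicate 3). For 1 Mb bins the number was 1 at an equal total and 0 to 1 when libraries were also left out (1 without 3 h replicate 2). Gene bodies passing numbered 0 to 2 without single libraries, 8 with peaks of −log10 p of at least 2 and 4 at an equal total. They numbered 3 without the lists under 500000 peaks and 2 with a pseudocount of 0.25. They numbered 0 with the replicate block (MORF4L1, limma adjusted p = 0.107), with the block at an equal total, in the 6 libraries alone, with genes longer than 4 kb and without both libraries over 40% promoter coverage. Of these settings MORF4L1 passed at an equal total (limma adjusted p = 0.0183), with the pseudocount of 0.25 (0.0165) and without no UV replicate 3 (0.0471), and over all settings its adjusted p was 0.0165 to 0.951. The genes that passed changed with the setting. Without the lists under 500000 peaks JSRP1 had the smallest limma adjusted p (6.56e-06), and MORF4L1 did not pass (0.0997). With the 250000 strongest peaks TMEM79 alone passed, as higher at 3 h (limma adjusted p = 0.0444), and MORF4L1 did not (0.0605). Promoters passing numbered 0 to 2 without single libraries (HMHB1 and HAS1 without no UV replicate 3).

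With peaks of −log10 p of at least 2, chromosome 8 bins starting at 139000001, 138000001 and 142000001 turned to −0.51, −0.60 and −0.0903, the XPC and DDB1 gene bodies to −0.45 and −0.32, and the DDB2 promoter to −1.19 kb. With the 250000 strongest peaks, the DDB2 body turned to 0.11 and the promoters of ASH1L, SSRP1, DDB1 and SUPT16H to −0.34, −0.15, 0.17 and −0.32 kb. With the 1 kb window, promoters of DDB2, SSRP1, DDB1, SUPT16H and MORF4L1 turned to −0.44, −0.15, 0.0457, −0.21 and 0.19 kb. Without lists under 500000 peaks, the SUPT16H body turned to 0.43 and promoters of XPC, DDB1 and MORF4L1 to 0.0368, 0.23 and 0.051 kb. At an equal total, with or without the replicate block, promoters of SUPT16H and MORF4L1 turned to −0.12 and 0.14 kb, and without both libraries over 40% promoter coverage those of SSRP1, SUPT16H and MORF4L1 to −0.67, −0.36 and 0.50 kb. Without single libraries, the DDB2 body ran from −0.78 to 0.22, the SUPT16H body from −0.92 to 0.43, and the promoters of ASH1L from −0.39 to 0.93, XPC from −1.05 to 0.35, DDB2 from −0.35 to 0.70, SSRP1 from −0.64 to 0.65, DDB1 from −0.71 to 0.38, SUPT16H from −0.63 to 0.37 and MORF4L1 from −0.61 to 0.73 kb. The cause of these shifts was not tested.

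Same-numbered 3 h and no UV libraries correlated in their bin deviations at −0.26, −0.34 and 0.36, so no steady pairing by number was seen. Whether same-numbered libraries were prepared together cannot be told from these values. Equal totals combined with the block or with a library left out, and leaving out both libraries over 40% promoter coverage, were chosen after seeing the data. The block took the number of gene bodies passing to 0 and, at an equal total, that of 1 Mb bins to 0 (limma adjusted p = 0.093). Lists of unequal length from libraries of unequal depth limit what small differences can show.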
